A study of Homo sapiens with 3 samples.

Results

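The comparison set LX-2 cells given TGF-b1+DP against LX-2 cells given the vehicle DMSO, over every gene with a mean of at least 1 FPKM across the 3 libraries of the study. That filter left 11327 of the 17576 genes measured (64.4%). FPKM is the number of fragments per kilobase of transcript, scaled to the fragments mapped in the library. LX-2 is an established human line derived from hepatic stellate cells, the liver cells that turn into matrix-producing myofibroblasts after injury. The TGF-b1+DP culture received the cytokine transforming growth factor beta 1 (TGF-b1) and 10 μM of the compound that the labels call DP. The TGF-b1 culture received the cytokine alone, and the DMSO culture received vehicle. All 3 were treated for 48 h and gave 1 library each. The sources used here do not give the dose of TGF-b1, and no library of DP without TGF-b1 was analysed here. TGF-b1 and DP were therefore added together in this comparison, and their effects cannot be told apart in it. The TGF-b1 library is given between the other two for orientation, and it shares the DMSO library as its baseline.

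TGF-beta ligands bind a pair of receptor serine kinases that phosphorylate SMAD2 and SMAD3, which enter the nucleus with SMAD4 and drive genes of matrix, contraction and feedback. BMP ligands of the same superfamily work through SMAD1, SMAD5 and SMAD9 and drive the ID genes. In the fibrotic liver, stellate cells under TGF-beta deposit collagen and fibronectin, restrain matrix breakdown through inhibitors such as TIMP1, and lose the retinoid-storing features of the quiet cell. The title of the series names apolipoprotein L2, a member of the APOL family, as the target of a natural small molecule in liver fibrosis.

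With 1 library per group there was no replicate, no test was possible and no p-value was computed. Each difference describes these libraries alone. It is given as log2((FPKM+1)/(FPKM+1)), TGF-b1+DP over DMSO, and called the log2 difference. The added 1 FPKM makes the difference of a low gene smaller than its ratio. A gene is called higher or lower where the log2 difference was at least 1 in size, which is 2-fold on that scale. A value in parentheses after a gene is its log2 difference. In bulk RNA, fewer cells of a type and less RNA per cell cannot be told apart.

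The columns summed to 429399 FPKM in TGF-b1+DP, 546754 FPKM in TGF-b1 and 443566 FPKM in DMSO. Genes above 0 numbered 15829 in TGF-b1+DP, 15796 in TGF-b1 and 16099 in DMSO. The mesenchymal intermediate filament gene VIM was at 2799.6 FPKM in TGF-b1+DP, 2734 FPKM in TGF-b1 and 1936 FPKM in DMSO (log2 difference 0.53). Of 13 stellate and mesenchymal markers listed, between 8 and 9 reached 1 FPKM in each library, while the stellate markers DES and LRAT were at most 0.06 FPKM and LUM was listed at 0 in all 3. The label of a stellate line thus rested on general mesenchymal genes, not on DES or LRAT. Summed markers of hepatocytes came to 89.2 FPKM in TGF-b1+DP, 2.45 FPKM in TGF-b1 and 4.58 FPKM in DMSO, and 88.5 of the 89.2 FPKM were SERPINA1 alone. ALB, the defining hepatocyte gene, was at 0 FPKM in TGF-b1+DP, 0 FPKM in TGF-b1 and 0.02 FPKM in DMSO. Endothelial markers summed to 3.77 FPKM in TGF-b1+DP, 1.23 FPKM in TGF-b1 and 1.48 FPKM in DMSO, and lymphocyte markers to 0.53 FPKM in TGF-b1+DP, 0.69 FPKM in TGF-b1 and 1.16 FPKM in DMSO. Macrophage markers summed to 57.8 FPKM in TGF-b1+DP, 25.9 FPKM in TGF-b1 and 54.3 FPKM in DMSO, most of it CD68, a lysosomal protein gene that many cells express. Epithelial markers summed to 356 FPKM in TGF-b1+DP, 1429 FPKM in TGF-b1 and 718 FPKM in DMSO, nearly all of it KRT8 and KRT18, with CDH1 at most 0.09 FPKM.

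Between TGF-b1+DP and DMSO, 278 genes were higher (2.45% of 11327) and 326 were lower (2.88%), so 5.33% passed in either direction. The other 10723 genes (94.7%) lay within 1 of 0 on the log2 scale. The median log2 difference of all genes was -0.10 and the SD over genes was 0.51. Differences of at least 2 were held by 70 higher and 28 lower genes, and differences of at least 3 by 19 higher and 5 lower genes. The balance of higher and lower genes depended on the scaling between libraries: 278 higher and 326 lower genes as deposited (46.0% of calls higher) became 356 and 215 (62.4%) after median-of-ratios scaling, which moved the median of all genes by 0.14. Correction for transcript length and GC content gave 325 higher and 207 lower genes (61.1%). PAX8 was the gene just inside the filter, with a mean of 1.0 FPKM, and SEPTIN1 just outside it, with 0.997 FPKM. RELB lay just inside the threshold for higher genes (log2 difference 1.003) and IRF9 just outside (0.998). HRCT1 lay just inside the threshold for lower genes (log2 difference -1.0) and HIP1 just outside (-0.9996).

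**Figure D1:**
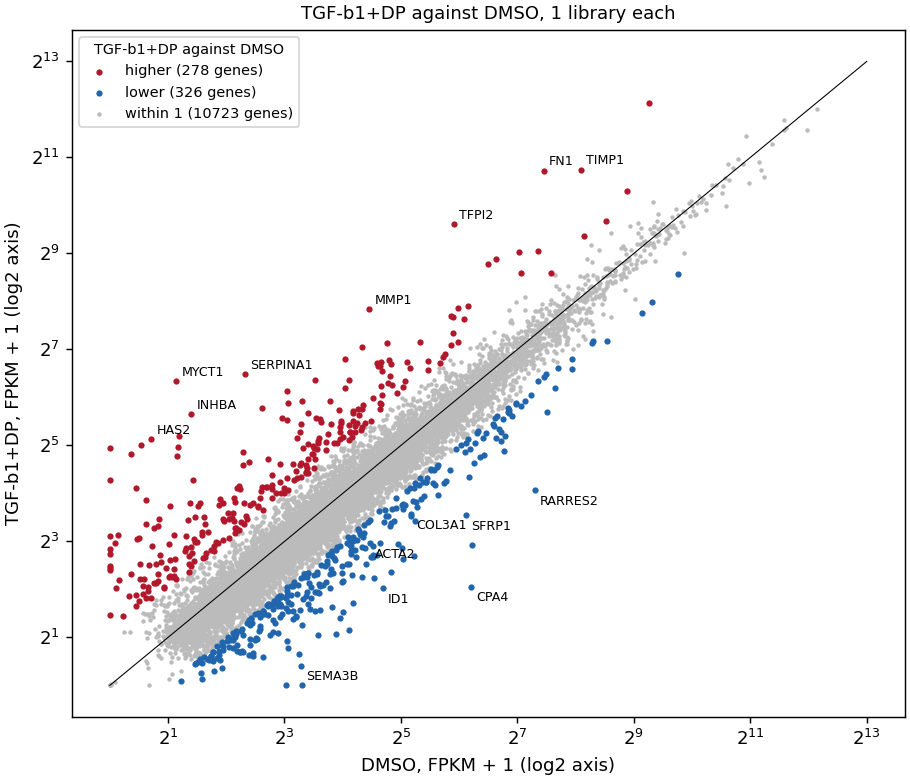
Level of each of the 11327 genes in TGF-b1+DP (y axis) against DMSO (x axis), as FPKM + 1 on log2 axes, 1 library each. Red points are the 278 higher genes, blue points the 326 lower genes and grey points the 10723 others. The line marks equal levels, and labelled genes are described in the text.

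The log2 difference ran with transcript features. From the shortest to the longest eighth of transcripts its median went from -0.16 to -0.00, and from the lowest to the highest eighth of GC content from 0.04 to -0.21. The highest eighth of GC content held 27 higher and 80 lower genes, and the lowest eighth held 30 higher and 10 lower genes. In the TGF-b1 library set against DMSO the length trend had the opposite sign and was steeper, with medians of 0.43 in the shortest eighth and -0.47 in the longest. Every TGF-b1 value given beside the others comes from that library.

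**Figure D2:**
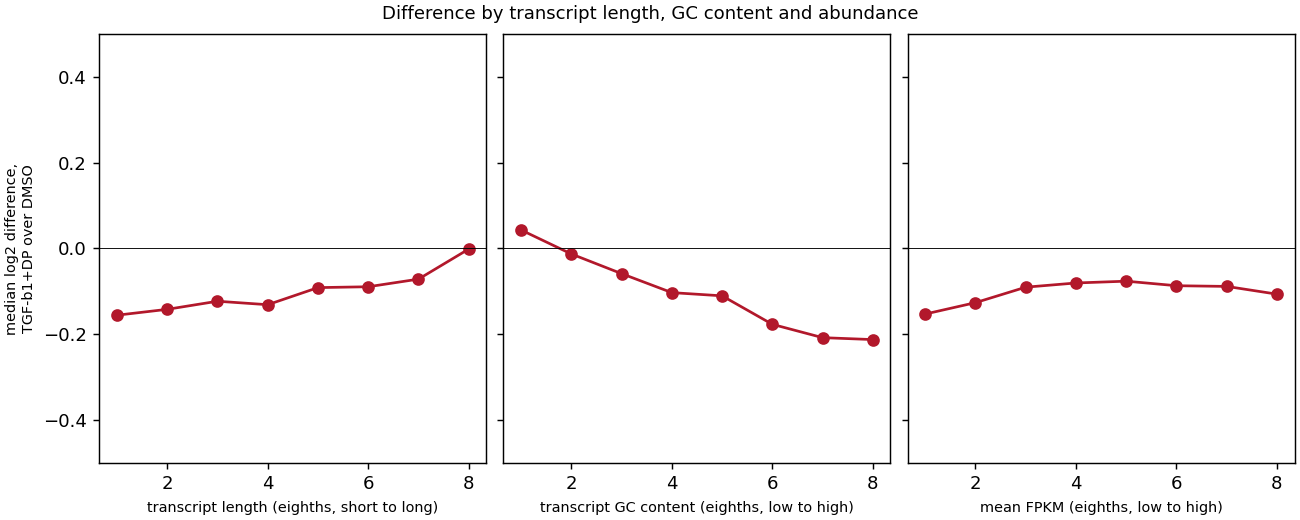
Median log2 difference of TGF-b1+DP over DMSO (y axis) in eighths of the genes ordered by transcript length, transcript GC content and mean FPKM (x axes, low to high). Each point is the median of about 1410 genes, and the medians lie between -0.21 and 0.04.

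Known targets of TGF-beta and SMAD signalling were the list with the largest median. Of 38 genes listed, 35 passed the filter, 21 were higher and none was lower, against 2.45% and 2.88% of all genes, and the list median was 1.25 against -0.10 for all genes. The same shares, 2.45% higher and 2.88% lower, are the background for every list count below. The filter takes in the compared libraries, so a gene high in a single library could pass through that level. ANGPTL4 and PCDH1 passed through their TGF-b1+DP level and SMAD6 through its DMSO level, and the list counts hold such genes. INHBA encodes the subunit of activin A, a TGF-beta superfamily ligand, and measured 49.4 FPKM in TGF-b1+DP, 8.94 FPKM in TGF-b1 and 1.64 FPKM in DMSO (log2 difference 4.25). It was near the floor in DMSO and highest in TGF-b1+DP. PMEPA1, which restrains SMAD signalling, stood at 16.3 FPKM in TGF-b1+DP, 12.9 FPKM in TGF-b1 and 0.37 FPKM in DMSO (log2 difference 3.66). Its levels in both cytokine-treated libraries were far above the DMSO level. CCN2, the connective tissue growth factor gene, was at 139 FPKM in TGF-b1+DP, 144 FPKM in TGF-b1 and 26.1 FPKM in DMSO (log2 difference 2.37), so both cytokine-treated libraries had like levels. PODXL, a sialomucin of the cell surface, measured 475 FPKM in TGF-b1+DP, 136 FPKM in TGF-b1 and 98.4 FPKM in DMSO (log2 difference 2.26). TGFBI, an extracellular adhesion protein, reached 382 FPKM in TGF-b1+DP against 132 FPKM in DMSO (log2 difference 1.52), and its highest level, 901 FPKM, was in the TGF-b1 library. The feedback genes SMAD7 (log2 difference 1.47), SMURF2 (1.5) and SKIL (0.91) ranged from just under the threshold to well past it, and SMURF2 shares reads with CEP95. The transcription factors SNAI1, at 4.17 FPKM in TGF-b1+DP against 1.57 FPKM in DMSO (log2 difference 1.01), and SNAI2, at 20.4 FPKM in TGF-b1+DP against 9.55 FPKM in DMSO (1.02), were only just past the threshold, and the TGF-b1 library held more of both, 15.3 FPKM of SNAI1 and 28.6 FPKM of SNAI2. Further higher members were the cytokine IL11 (log2 difference 2.01), the matricellular genes THBS1 (1.87) and CCN1 (1.69), the activin antagonist FSTL3 (1.65), the repressor BHLHE40 (1.63) and the integrin subunit ITGAV (1.44). THBS1 shares reads with FSIP1. Members near or under 0 were CDKN1A (log2 difference -0.03) and CDKN2B (-0.22), both CDK inhibitors, KLF10 (-0.26), SKI (-0.37), LTBP3 (-0.44) and BAMBI (-0.66).

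The ligands, receptors and SMADs of the pathway did not share one direction. Of 26 members past the filter, 4 were higher and 2 lower, and the list median was -0.06. TGFB2 was higher, at 9.72 FPKM in TGF-b1+DP against 2.89 FPKM in DMSO (log2 difference 1.46), and TGFB1 stood at 136 FPKM in TGF-b1+DP against 87.5 FPKM in DMSO (0.63), sharing reads with HNRNPUL1. The type II receptor TGFBR2 had a log2 difference of 0.88 and the type I receptor TGFBR1 of -0.09. SMAD3, the receptor-activated mediator itself, was lower, at 22.4 FPKM in TGF-b1+DP, 24.5 FPKM in TGF-b1 and 48.2 FPKM in DMSO (log2 difference -1.07), but not after median-of-ratios scaling. SMAD6, the inhibitory SMAD of the BMP branch, stood at 0.63 FPKM in TGF-b1+DP, 0.80 FPKM in TGF-b1 and 3.74 FPKM in DMSO (log2 difference -1.54). LTBP2, a latent TGF-beta binding protein, was higher (log2 difference 1.85).

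In the BMP pathway and ID list, 6 of 16 members past the filter were lower and 2 higher, with a median of -0.72. ID1, a dominant-negative partner of basic helix-loop-helix factors and a classic BMP target, was at 3.08 FPKM in TGF-b1+DP, 26.4 FPKM in TGF-b1 and 24.8 FPKM in DMSO (log2 difference -2.66). Its DMSO and TGF-b1 levels were alike and the TGF-b1+DP level was the lowest. ID3 measured 32.4 FPKM in TGF-b1+DP, 112 FPKM in TGF-b1 and 68.6 FPKM in DMSO (log2 difference -1.06), again lowest in TGF-b1+DP, though its log2 difference missed the threshold after median-of-ratios scaling. ID2 (log2 difference -1.19) was lower as well. ATOH8, a helix-loop-helix factor downstream of BMP signalling, was at 0.58 FPKM in TGF-b1+DP, 1.09 FPKM in TGF-b1 and 8.54 FPKM in DMSO (log2 difference -2.59). The ligand BMP4 stood at 6.73 FPKM in TGF-b1+DP, 7.5 FPKM in TGF-b1 and 30.1 FPKM in DMSO (log2 difference -2.01). Both were low in the 2 cytokine-treated libraries. GREM1, a secreted antagonist that binds BMP4, was on the opposite side, at 519 FPKM in TGF-b1+DP, 174 FPKM in TGF-b1 and 129 FPKM in DMSO (log2 difference 1.99). The inhibitors NOG (log2 difference -0.81), FST (-0.77) and BAMBI (-0.66) of the same list were under 0 and within the threshold, so the antagonists did not share a direction. MSX1, a homeobox factor, was the other higher member (log2 difference 1.13).

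The plot of single libraries shows these genes together with the matrix, protease, cytokine, interferon and proliferation genes that follow.

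**Figure D3:**
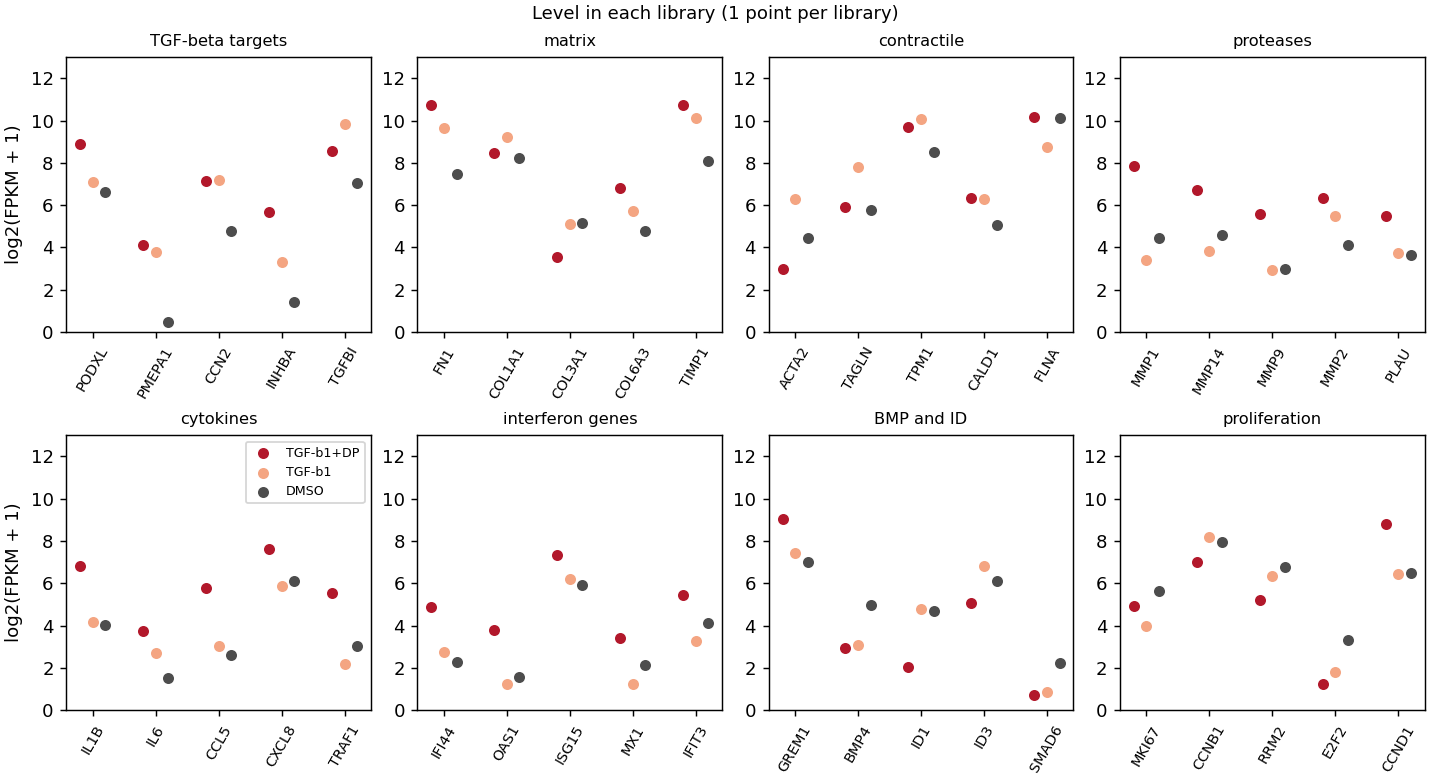
Level of 40 genes in 8 groups in each library, as log2(FPKM + 1) on the y axis, with TGF-b1+DP in red, TGF-b1 in light orange and DMSO in grey, 1 point per library. PODXL, FN1, MMP1, IL1B and IFI44 lie highest in TGF-b1+DP, while ACTA2, COL3A1 and ID1 lie lowest in it.

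Structural matrix genes were split. Among collagens, 18 of 22 listed genes passed the filter, 2 were higher and 2 lower, and the median was 0.06. COL6A3, a chain of the beaded-filament collagen, was at 109.6 FPKM in TGF-b1+DP, 52.3 FPKM in TGF-b1 and 26.7 FPKM in DMSO (log2 difference 2.0). COL27A1, a fibrillar collagen of cartilage, measured 8.72 FPKM in TGF-b1+DP, 1.71 FPKM in TGF-b1 and 0.69 FPKM in DMSO (log2 difference 2.52). COL3A1, a fibrillar collagen of scar tissue, stood at 10.8 FPKM in TGF-b1+DP, 33.1 FPKM in TGF-b1 and 34.9 FPKM in DMSO (log2 difference -1.6), with the TGF-b1 and DMSO libraries alike. COL8A1, a network-forming collagen, was lower too, at 4.05 FPKM in TGF-b1+DP against 14.9 FPKM in DMSO (log2 difference -1.65). The chains of type I collagen lay within the threshold. COL1A1 stood at 349 FPKM in TGF-b1+DP, 604 FPKM in TGF-b1 and 295 FPKM in DMSO (log2 difference 0.24). COL1A2 was at 3.24 FPKM in TGF-b1+DP, 5.91 FPKM in TGF-b1 and 1.22 FPKM in DMSO (log2 difference 0.93). For both, the TGF-b1 library held the highest level. COL12A1 (log2 difference -0.98), COL5A1 (0.79) and COL7A1 (0.83) spread to either side of 0.

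Of the other matrix glycoproteins and proteoglycans, 28 passed the filter, 7 were higher and 4 lower, and the list median was 0.03. FN1, the gene of fibronectin, measured 1686 FPKM in TGF-b1+DP, 809 FPKM in TGF-b1 and 174 FPKM in DMSO (log2 difference 3.27), which put it among the 15 largest positive differences. The matricellular gene TNC stood at 76.1 FPKM in TGF-b1+DP against 27.8 FPKM in DMSO (log2 difference 1.42). Of the proteoglycans, BGN was at 5.17 FPKM in TGF-b1+DP against 1.18 FPKM in DMSO (log2 difference 1.5) and VCAN at 6.34 FPKM in TGF-b1+DP against 1.63 FPKM in DMSO (1.48). LAMB3 (log2 difference 1.27), a laminin chain, was higher and LAMA4 (-1.58) and LAMA5 (-1.45) lower; LAMA5 shares reads with ADRM1. The heparan sulfate proteoglycan GPC1 was lower, at 26.98 FPKM in TGF-b1+DP against 84.7 FPKM in DMSO (log2 difference -1.61), as was the filament-forming adaptor MATN2, at 2.29 FPKM in TGF-b1+DP against 17.1 FPKM in DMSO (-2.46). SPARC, abundant in all libraries, stood at 369.9 FPKM in TGF-b1+DP, 880.4 FPKM in TGF-b1 and 269.5 FPKM in DMSO (log2 difference 0.46).

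Collagen-processing genes mostly kept close to DMSO, and 2 of 23 were higher and 1 lower (list median -0.04). PLOD2, the hydroxylase of telopeptide lysines, was higher, at 50.3 FPKM in TGF-b1+DP, 43.7 FPKM in TGF-b1 and 17.1 FPKM in DMSO (log2 difference 1.51). TGM2, a crosslinking transglutaminase that shares reads with RPRD1B, was at 46.4 FPKM in TGF-b1+DP, 6.36 FPKM in TGF-b1 and 10.6 FPKM in DMSO (log2 difference 2.03). PCOLCE, an enhancer of procollagen cleavage, was lower (log2 difference -1.13), but not after median-of-ratios scaling. LOX, which crosslinks collagen and shares reads with SRFBP1, measured 12.1 FPKM in TGF-b1+DP, 71.8 FPKM in TGF-b1 and 13.1 FPKM in DMSO (log2 difference -0.11), so the high level of the TGF-b1 library was not seen in TGF-b1+DP.

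Contractile and actin-binding genes were mixed. Of 27 members past the filter, 2 were higher, 1 lower and the median was 0.15. ACTA2, the smooth muscle actin that defines the myofibroblast, stood at 6.79 FPKM in TGF-b1+DP, 78.1 FPKM in TGF-b1 and 21.1 FPKM in DMSO (log2 difference -1.5), and shares reads with FAS. Its level was lowest in TGF-b1+DP and highest in TGF-b1. TPM1 and CALD1, which regulate actin filaments, were higher in both cytokine-treated libraries. TPM1 stood at 823 FPKM in TGF-b1+DP, 1065 FPKM in TGF-b1 and 368 FPKM in DMSO (log2 difference 1.16). CALD1 was at 80.7 FPKM in TGF-b1+DP, 77.1 FPKM in TGF-b1 and 32.8 FPKM in DMSO (log2 difference 1.27). TAGLN, a calponin-related actin binder, measured 59.8 FPKM in TGF-b1+DP, 220.1 FPKM in TGF-b1 and 53.9 FPKM in DMSO (log2 difference 0.15), and shares reads with PCSK7. CNN1 (log2 difference -0.66), MYLK (-0.61) and ACTG2 (-0.57) were under 0, and SMTN (0.88), CDH11 (0.72) and ACTN1 (0.69) above it.

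Matrix proteases and their inhibitors held 10 higher members and 1 lower member of 24 past the filter, with a median of 0.70. Of all genes, 2.45% were higher and 2.88% lower. MMP1, an interstitial collagenase, stood at 228 FPKM in TGF-b1+DP, 9.43 FPKM in TGF-b1 and 21.01 FPKM in DMSO (log2 difference 3.38), and it was lowest in the TGF-b1 library. The membrane-bound MMP14, which activates MMP2, was at 104 FPKM in TGF-b1+DP, 13.1 FPKM in TGF-b1 and 23.1 FPKM in DMSO (log2 difference 2.12), with the same order of libraries. The gelatinases were higher too. MMP2 was at 80.8 FPKM in TGF-b1+DP, 43.5 FPKM in TGF-b1 and 16.2 FPKM in DMSO (log2 difference 2.25). MMP9 measured 46.5 FPKM in TGF-b1+DP, 6.75 FPKM in TGF-b1 and 6.76 FPKM in DMSO (log2 difference 2.61). Of their inhibitors, TIMP1 stood at 1717 FPKM in TGF-b1+DP, 1111 FPKM in TGF-b1 and 271 FPKM in DMSO (log2 difference 2.66), whereas TIMP3 (0.63) and TIMP2 (-0.54) were within the threshold, and TIMP2 shares reads with a neighbour. The urokinase gene PLAU, at 43.98 FPKM in TGF-b1+DP against 11.3 FPKM in DMSO (log2 difference 1.87), and its receptor PLAUR, at 99.1 FPKM in TGF-b1+DP against 24.01 FPKM in DMSO (2.0), were higher, while the tissue activator PLAT was not (-0.86). The sheddase ADAM19 (log2 difference 1.54) and ADAMTS1 (1.14) were higher and MMP15 was lower, from low levels (-1.02), but MMP15 missed the threshold after median-of-ratios scaling, upper-quartile scaling and the correction for length and GC content.

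Serpins, inhibitors of serine proteases, had 4 higher and 1 lower member of 12, with a median of 0.29. SERPINA1, the gene of alpha-1-antitrypsin (chromosome 14, 94376747 to 94390693, GRCh38), was at 88.5 FPKM in TGF-b1+DP, 1.93 FPKM in TGF-b1 and 3.99 FPKM in DMSO (log2 difference 4.16), and it was lowest in the TGF-b1 library. SERPINB2, plasminogen activator inhibitor 2, measured 26.4 FPKM in TGF-b1+DP, 0.35 FPKM in TGF-b1 and 1.23 FPKM in DMSO (log2 difference 3.62), and shares reads with SERPINB10. SERPINB7 was higher (log2 difference 1.88) and the granzyme B inhibitor SERPINB9 lower (-1.15). In the complement and acute phase list SERPINA1 was the single higher gene of 8, none was lower, the median was 0.02 and 13 listed genes were under the filter.

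Chemokines and cytokines held 9 higher and 2 lower members of 20 past the filter, with a median of 0.95, and 13 listed genes were under it. The shares over all genes were 2.45% higher and 2.88% lower. CCL5, a chemokine for T cells and monocytes, stood at 54.2 FPKM in TGF-b1+DP, 7.21 FPKM in TGF-b1 and 5.15 FPKM in DMSO (log2 difference 3.17). IL1B, the gene of interleukin 1 beta, was at 111 FPKM in TGF-b1+DP, 16.8 FPKM in TGF-b1 and 15.5 FPKM in DMSO (log2 difference 2.76). IL6 measured 12.4 FPKM in TGF-b1+DP, 5.43 FPKM in TGF-b1 and 1.86 FPKM in DMSO (log2 difference 2.23). In all 3 the TGF-b1+DP library was the highest. CXCL8, a chemokine for neutrophils, stood at 198 FPKM in TGF-b1+DP, 56.8 FPKM in TGF-b1 and 67.2 FPKM in DMSO (log2 difference 1.54). Its relatives CXCL5 (log2 difference 2.0) and CXCL3 (1.14) were higher too, whereas CXCL2 (-0.48) and CXCL6 (-0.50) were under 0. LIF, of the IL6 family, stood at 9.89 FPKM in TGF-b1+DP against 1.53 FPKM in DMSO (log2 difference 2.11), and IL32, a pro-inflammatory cytokine, at 238 FPKM in TGF-b1+DP against 70.01 FPKM in DMSO (1.75). The lower members were CCL26, an eosinophil chemokine, at 1.96 FPKM in TGF-b1+DP, 7.94 FPKM in TGF-b1 and 11.3 FPKM in DMSO (log2 difference -2.05), and CXCL16 (-1.14), the second of them not after the correction for length and GC content. CCL2, the monocyte chemokine, was at 40.5 FPKM in TGF-b1+DP, 81.5 FPKM in TGF-b1 and 21.1 FPKM in DMSO (log2 difference 0.91), and its highest level was in the TGF-b1 library.

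NF-kB subunits, inhibitors and targets held 8 higher and 2 lower members of 26, against 2.45% and 2.88% of all genes, with a median of 0.48. TRAF1, a signalling adaptor and target of the pathway, measured 45.3 FPKM in TGF-b1+DP, 3.47 FPKM in TGF-b1 and 7.21 FPKM in DMSO (log2 difference 2.5). TNFAIP3, which encodes the feedback deubiquitinase A20, stood at 36.5 FPKM in TGF-b1+DP, 4.78 FPKM in TGF-b1 and 12.4 FPKM in DMSO (log2 difference 1.48). Both were lowest in the TGF-b1 library. NFKBIZ (log2 difference 1.46), TNIP1 (1.18), the adhesion molecule ICAM1 (1.15) and SOD2 (1.23), a mitochondrial superoxide dismutase that shares reads with ACAT2 and WTAP, were higher. The subunits themselves lay close to the threshold or under it, RELB (log2 difference 1.0), NFKB1 (0.59), NFKB2 (0.50), REL (0.28) and RELA (0.18). NFKBIA, the immediate feedback inhibitor, had a log2 difference of 0.19. The lower members were TNFAIP2, at 18.3 FPKM in TGF-b1+DP against 53.6 FPKM in DMSO (log2 difference -1.5), and the pentraxin PTX3, at 16.96 FPKM in TGF-b1+DP against 47.2 FPKM in DMSO (-1.43). JAK, STAT and SOCS genes held no higher and no lower member of 22, with a median of -0.05.

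Promoters of TNFAIP3, IL6 and SLAMF8 are shown as examples that hold a short sequence found in some members of the NF-kB list. IL6 is from the chemokine and cytokine list, and SLAMF8 is on neither list. The window runs from 250 bases before to 50 bases after the gene start, taken from RefSeq (GRCh38.p14, plus strand). The sequence GGGNNTTTCC, a form of the kappa-B site searched on both strands, is in capitals, as is the AP-1 sequence TGAGTCA where it occurs. SLAMF8, of a family of immune cell receptors, is included as one of the largest differences, at 27.2 FPKM in TGF-b1+DP, 2.26 FPKM in TGF-b1 and 0.28 FPKM in DMSO (log2 difference 4.46). The windows lie at chr6:137867009-137867308, chr7:22726950-22727249 and chr1:159826623-159826922.
TNFAIP3: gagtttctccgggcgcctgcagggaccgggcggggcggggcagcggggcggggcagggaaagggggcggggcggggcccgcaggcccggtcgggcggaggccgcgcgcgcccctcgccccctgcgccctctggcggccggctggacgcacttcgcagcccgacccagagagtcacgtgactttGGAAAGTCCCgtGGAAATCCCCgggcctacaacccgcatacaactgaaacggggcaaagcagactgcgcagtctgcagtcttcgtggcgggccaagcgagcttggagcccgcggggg
IL6: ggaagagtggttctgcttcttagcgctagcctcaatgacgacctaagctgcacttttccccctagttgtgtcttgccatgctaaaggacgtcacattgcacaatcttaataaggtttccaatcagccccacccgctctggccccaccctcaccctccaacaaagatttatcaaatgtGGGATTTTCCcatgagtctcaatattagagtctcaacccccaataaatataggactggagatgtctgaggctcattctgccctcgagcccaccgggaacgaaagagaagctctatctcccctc
SLAMF8: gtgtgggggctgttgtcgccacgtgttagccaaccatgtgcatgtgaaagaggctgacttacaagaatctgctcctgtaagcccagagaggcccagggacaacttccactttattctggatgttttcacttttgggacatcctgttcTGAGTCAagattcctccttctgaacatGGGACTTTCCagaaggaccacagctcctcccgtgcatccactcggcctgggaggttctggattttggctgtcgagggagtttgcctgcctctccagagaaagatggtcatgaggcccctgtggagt
Of NF-kB list members with a window, 10 of 23 held GGGNNTTTCC, and 3 of the 7 higher ones did. Of chemokines and cytokines, 7 of 14 held it, and 4 of the 7 higher ones did. Among all 9401 genes past the filter with a window the share was 2.86%, and among all 35116 windows of the reference 1.91%. For TGAGTCA the shares were 4.46% and 4.95%. Members of both lists that were not higher held GGGNNTTTCC too. A match describes these letters only.

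Interferon-stimulated genes held 18 higher members and 1 lower member of 45 past the filter, against 2.45% and 2.88% of all genes, with a median of 0.78. OAS1, a synthetase that activates RNase L, was at 12.8 FPKM in TGF-b1+DP, 1.37 FPKM in TGF-b1 and 1.94 FPKM in DMSO (log2 difference 2.23). Its relative OAS2 stood at 16.8 FPKM in TGF-b1+DP, 1.92 FPKM in TGF-b1 and 3.64 FPKM in DMSO (log2 difference 1.94). IFI44 measured 28.1 FPKM in TGF-b1+DP, 5.74 FPKM in TGF-b1 and 3.88 FPKM in DMSO (log2 difference 2.58). In each of these the TGF-b1+DP library was several times the other two. ISG15, a ubiquitin-like modifier, stood at 161 FPKM in TGF-b1+DP, 73.4 FPKM in TGF-b1 and 58.7 FPKM in DMSO (log2 difference 1.44). DDX58, the RNA sensor RIG-I, was at 9.36 FPKM in TGF-b1+DP, 2.1 FPKM in TGF-b1 and 2.12 FPKM in DMSO (log2 difference 1.73). IFIT3, an antiviral tetratricopeptide protein, measured 42.1 FPKM in TGF-b1+DP, 8.62 FPKM in TGF-b1 and 16.2 FPKM in DMSO (log2 difference 1.32). MX1, a dynamin-like GTPase, stood at 9.74 FPKM in TGF-b1+DP, 1.37 FPKM in TGF-b1 and 3.41 FPKM in DMSO (log2 difference 1.28). For IFIT3 and MX1 the TGF-b1 library was under the DMSO library. Other higher members were ISG20 (log2 difference 1.59), OASL (1.5), IFIT2 (1.39), RSAD2 (1.31), GBP1 (1.21), IFI6 (1.15) and PARP14 (1.02). Factors that drive the programme lay under the threshold, IRF9 (log2 difference 1.0), IRF7 (0.72) and STAT2 (0.37). IFITM2 was the lower member (log2 difference -1.08), shares reads with IFITM1 and missed the threshold after median-of-ratios scaling. The secreted ligands CXCL10 and CXCL11 were under the filter.

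The antigen presentation list, which interferon also drives, had no higher and no lower member among 17, but its median was 0.40 against -0.10 for all genes. ERAP2 (log2 difference 0.91) and ERAP1 (0.70), which trim peptides, HLA-B (0.56) and B2M (0.40) were above 0, and CALR (-0.31) and HLA-E (-0.18) under it.

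The promoters of 3 higher interferon genes are shown for the sequence GAAANNGAAA, the core of the interferon-stimulated response element, in capitals where it occurs on either strand. IFIT3 holds it in 2 places and in ISG15 a pair of matches overlap. The windows lie at chr1:78649539-78649838, chr10:89327747-89328046 and chr1:1013247-1013546 of GRCh38.p14, plus strand.
IFI44: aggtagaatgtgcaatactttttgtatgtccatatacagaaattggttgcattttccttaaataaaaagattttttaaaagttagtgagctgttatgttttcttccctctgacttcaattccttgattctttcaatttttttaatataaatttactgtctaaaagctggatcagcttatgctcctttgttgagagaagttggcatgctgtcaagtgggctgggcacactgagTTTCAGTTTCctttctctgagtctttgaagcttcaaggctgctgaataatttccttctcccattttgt
IFIT3: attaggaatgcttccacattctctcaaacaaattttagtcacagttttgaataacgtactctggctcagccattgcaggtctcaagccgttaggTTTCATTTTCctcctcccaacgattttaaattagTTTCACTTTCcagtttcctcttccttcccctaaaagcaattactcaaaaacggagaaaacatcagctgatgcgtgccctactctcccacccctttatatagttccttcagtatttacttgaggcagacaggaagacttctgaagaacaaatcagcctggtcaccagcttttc
ISG15: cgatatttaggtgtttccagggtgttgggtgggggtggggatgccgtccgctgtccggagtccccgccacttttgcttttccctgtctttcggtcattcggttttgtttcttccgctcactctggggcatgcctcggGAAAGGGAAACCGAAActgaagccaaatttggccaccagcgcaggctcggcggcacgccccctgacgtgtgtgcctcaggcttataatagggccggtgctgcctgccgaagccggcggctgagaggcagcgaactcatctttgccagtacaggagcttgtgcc
Of the 14 higher interferon genes with a window, 11 held it (78.6%), and of all 35 members past the filter with a window 25 did (71.4%). The share was 3.84% among genes past the filter with a window and 3.57% among all windows. Members that were not higher held it too.

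In the PDGF, FGF, HGF and VEGF list 7 of 16 members past the filter were higher and none was lower, and the list median was 0.61. For all genes the shares were 2.45% higher and 2.88% lower. FGF2, which shares reads with NUDT6, was at 50.2 FPKM in TGF-b1+DP, 28.6 FPKM in TGF-b1 and 9.54 FPKM in DMSO (log2 difference 2.28). FGF5, which shares reads with CFAP299, measured 23.2 FPKM in TGF-b1+DP, 5.71 FPKM in TGF-b1 and 3.91 FPKM in DMSO (log2 difference 2.3). NRP2, a co-receptor for VEGF and semaphorins, stood at 45.8 FPKM in TGF-b1+DP, 9.45 FPKM in TGF-b1 and 11.3 FPKM in DMSO (log2 difference 1.93). VEGFA, the angiogenic ligand, was at 43.1 FPKM in TGF-b1+DP, 43.3 FPKM in TGF-b1 and 14.7 FPKM in DMSO (log2 difference 1.49), alike in both cytokine-treated libraries. PDGFB (log2 difference 1.35), ANGPTL4 (1.25) and FGF1 (1.15) were higher, whereas the receptors PDGFRB (-0.27), MET (-0.32) and FGFR1 (-0.42) were not. In the EGF family 1 of 5 was higher, HBEGF, at 37.8 FPKM in TGF-b1+DP against 16.4 FPKM in DMSO (log2 difference 1.16), none was lower and the median was -0.10. The IGF list had 1 higher, 1 lower and a median of -0.00 over 12 members. IGFBP5, an IGF-binding protein, measured 72.2 FPKM in TGF-b1+DP, 4.48 FPKM in TGF-b1 and 15.5 FPKM in DMSO (log2 difference 2.15). IGFBP6, which prefers IGF2, stood at 34.8 FPKM in TGF-b1+DP, 49.1 FPKM in TGF-b1 and 83.7 FPKM in DMSO (log2 difference -1.24), short of the threshold after the correction for length and GC content.

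Feedback genes of ERK signalling had 4 higher and no lower member of 17, with a median of 0.57. They were the transcription factor ETV4, at 22.97 FPKM in TGF-b1+DP, 11.2 FPKM in TGF-b1 and 8.59 FPKM in DMSO (log2 difference 1.32), the inhibitor SPRY2, at 17.9 FPKM in TGF-b1+DP, 6.59 FPKM in TGF-b1 and 6.6 FPKM in DMSO (log2 difference 1.31), and the phosphatases DUSP16 (1.19) and DUSP6 (1.01). Early response and AP-1 genes had 4 higher and none lower of 23, with a median of 0.24. MAFF, a small MAF factor, was at 42.8 FPKM in TGF-b1+DP, 12.8 FPKM in TGF-b1 and 8.69 FPKM in DMSO (log2 difference 2.17). The stress gene IER3 measured 205 FPKM in TGF-b1+DP, 97.1 FPKM in TGF-b1 and 58.4 FPKM in DMSO (log2 difference 1.79). JUNB, which shares reads with HOOK2, stood at 64.97 FPKM in TGF-b1+DP against 24.7 FPKM in DMSO (log2 difference 1.36), and EGR2 at 2.17 FPKM in TGF-b1+DP against 0.36 FPKM in DMSO (1.22). JUN (log2 difference -0.04), FOSL1 (-0.53), EGR1 (-0.43) and MYC (0.86) were within the threshold.

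Of 12 integrin subunits past the filter, 4 were higher and 2 lower, and the list median was 0.23. ITGA2, a collagen-binding subunit, stood at 16.4 FPKM in TGF-b1+DP, 2.36 FPKM in TGF-b1 and 3.54 FPKM in DMSO (log2 difference 1.94). ITGAV, whose heterodimers activate latent TGF-beta, was at 16.5 FPKM in TGF-b1+DP, 10.9 FPKM in TGF-b1 and 5.48 FPKM in DMSO (log2 difference 1.44). The common beta subunit ITGB1 measured 388 FPKM in TGF-b1+DP, 317 FPKM in TGF-b1 and 190.1 FPKM in DMSO (log2 difference 1.02). ITGA1 was higher (log2 difference 1.09), though not after the correction for length and GC content, and shares reads with PELO. The laminin-binding ITGA7, at 2.87 FPKM in TGF-b1+DP against 10.5 FPKM in DMSO (log2 difference -1.57), and ITGB4, at 0.48 FPKM in TGF-b1+DP against 2.58 FPKM in DMSO (-1.27), were lower. In the hyaluronan list 2 of 9 were higher, 1 was lower and the median was 0.24. HAS2, a hyaluronan synthase, stood at 34.1 FPKM in TGF-b1+DP, 3.36 FPKM in TGF-b1 and 0.64 FPKM in DMSO (log2 difference 4.42). TNFAIP6, which crosslinks hyaluronan, was at 6.25 FPKM in TGF-b1+DP, 13.4 FPKM in TGF-b1 and 1.49 FPKM in DMSO (log2 difference 1.54). The hyaluronan receptor CD44 had a log2 difference of 0.69, and HMMR, also a mitotic gene, was lower (-1.01), short of the threshold after median-of-ratios scaling.

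Among semaphorins, plexins and neuropilins, 3 of 19 were higher and 2 lower, and the list median was -0.24. SEMA7A, a membrane-anchored semaphorin that binds integrin, measured 57.8 FPKM in TGF-b1+DP, 8.4 FPKM in TGF-b1 and 7.32 FPKM in DMSO (log2 difference 2.82). SEMA3B, a secreted semaphorin, stood at 0.33 FPKM in TGF-b1+DP, 0.60 FPKM in TGF-b1 and 8.76 FPKM in DMSO (log2 difference -2.88), low in both cytokine-treated libraries. SEMA5A was higher (log2 difference 1.55) and SEMA6B lower (-1.03). The SEMA6B difference missed the threshold after median-of-ratios scaling, upper-quartile scaling and the correction for length and GC content. In the Wnt list 2 of 21 were higher, 2 lower and the median was -0.23. WNT5B, a ligand of non-canonical signalling, was at 52.6 FPKM in TGF-b1+DP, 30.2 FPKM in TGF-b1 and 14.3 FPKM in DMSO (log2 difference 1.8), and WNT9A was higher from a low level (1.19). The 2 lower members, SFRP1 and DKK1, encode secreted Wnt antagonists. SFRP1 was at 10.7 FPKM in TGF-b1+DP, 16.3 FPKM in TGF-b1 and 68.2 FPKM in DMSO (log2 difference -2.57). DKK1 measured 39.4 FPKM in TGF-b1+DP, 47.8 FPKM in TGF-b1 and 102 FPKM in DMSO (log2 difference -1.35). DKK3, of the same gene family as DKK1, was not lower (log2 difference 0.45). The Notch list had no higher and no lower member of 14 and a median of -0.03. HES1, a repressor that Notch drives, stood at 1.49 FPKM in TGF-b1+DP, 20.4 FPKM in TGF-b1 and 3.17 FPKM in DMSO (log2 difference -0.74). YAP and TEAD targets had 5 higher and 1 lower member of 28, with a median of 0.06. NT5E, an ecto-nucleotidase, stood at 113 FPKM in TGF-b1+DP against 52.1 FPKM in DMSO (log2 difference 1.11), and ANKRD1 (1.01) was only just past the threshold, while AXL (-0.85) and AJUBA (-0.84) were under 0. Tissue factor, F3, was the lower member, at 12.6 FPKM in TGF-b1+DP against 31.4 FPKM in DMSO (log2 difference -1.25).

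Proliferation genes were under their DMSO level as a group. All 36 mitosis genes passed the filter, 7 were lower, none was higher and the median was -0.71, where 2.88% of all genes were lower. All 39 genes of DNA replication and S phase passed, 7 were lower, none was higher and the median was -0.60. The members nearest to 0 were TTK, with a log2 difference of -0.14, and ORC6, with -0.18. After median-of-ratios scaling the lower members were 4 and 3, and upper-quartile scaling left 4 in the S phase list. PLK1, a mitotic kinase, was at 46.1 FPKM in TGF-b1+DP, 85.9 FPKM in TGF-b1 and 106 FPKM in DMSO (log2 difference -1.19). CCNB2, a mitotic cyclin, measured 41.2 FPKM in TGF-b1+DP, 115 FPKM in TGF-b1 and 95.6 FPKM in DMSO (log2 difference -1.19). KIF20A, a kinesin of cytokinesis that shares reads with BRD8, stood at 28.7 FPKM in TGF-b1+DP, 68.9 FPKM in TGF-b1 and 108 FPKM in DMSO (log2 difference -1.88). RRM2, a subunit of ribonucleotide reductase, was at 35.9 FPKM in TGF-b1+DP, 80.5 FPKM in TGF-b1 and 109 FPKM in DMSO (log2 difference -1.58). The factor E2F2 measured 1.39 FPKM in TGF-b1+DP, 2.52 FPKM in TGF-b1 and 8.83 FPKM in DMSO (log2 difference -2.04). The lowest level of RRM2, PLK1 and CCNB2 was in TGF-b1+DP. MKI67, the proliferation marker, stood at 29.5 FPKM in TGF-b1+DP, 14.9 FPKM in TGF-b1 and 49.3 FPKM in DMSO (log2 difference -0.72). For this gene and some others, such as CENPF and TOP2A, the TGF-b1 library was the lowest, while UBE2C and CDK1 were highest in it. The part of the length trend of the TGF-b1 library in this order was not tested. TYMS (log2 difference -1.33), CCNE2 (-1.03) and CENPA (-1.19) were lower but share reads with ENOSF1, INTS8 and SLC35F6. AURKA (log2 difference -1.11), PTTG1 (-1.13), CDC20 (-1.02), TK1 (-1.15) and MCM6 (-1.06) were lower as well. Of these 8 genes, CCNE2, AURKA, PTTG1, CDC20, TK1 and MCM6 missed the threshold after median-of-ratios scaling.

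In the list of D cyclins, CDK inhibitors and p53 targets, 1 of 26 was higher, 2 lower and the median was -0.20. CCND1, the G1 cyclin, was on the opposite side from the mitotic genes, at 440.1 FPKM in TGF-b1+DP, 86.2 FPKM in TGF-b1 and 89.7 FPKM in DMSO (log2 difference 2.28), and shares reads with LTO1. The INK4 inhibitor CDKN2C was lower, at 19.3 FPKM in TGF-b1+DP, 66.2 FPKM in TGF-b1 and 70.8 FPKM in DMSO (log2 difference -1.82), as was CDKN2D (-1.04), which missed the threshold after median-of-ratios scaling. CDKN1A (log2 difference -0.03) and MDM2 (-0.01), targets of p53, lay at the DMSO level. In the BCL2 and IAP list 1 of 19 was higher, 1 lower and the median was 0.02. BCL2A1, an anti-apoptotic family member, was at 35.5 FPKM in TGF-b1+DP, 5.64 FPKM in TGF-b1 and 1.27 FPKM in DMSO (log2 difference 4.01). BCL2L11, which encodes the pro-apoptotic BIM, measured 2.83 FPKM in TGF-b1+DP, 6.0 FPKM in TGF-b1 and 10.8 FPKM in DMSO (log2 difference -1.62). The pair thus differed from DMSO in opposite directions, and MCL1 (log2 difference 0.71) and BAX (-0.31) were within the threshold.

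Lists of ER, PERK and ATF4, calcium store and heat shock genes had medians between -0.06 and 0.19. Over all genes 2.45% were higher and 2.88% lower, so the small counts of the stress, calcium, metallothionein and redox lists are not read as a trait. ER chaperones, translocon and degradation genes had no higher and no lower member of 32, with a median of 0.02. HSPA5, the ER chaperone BiP, stood at 183 FPKM in TGF-b1+DP, 189 FPKM in TGF-b1 and 148 FPKM in DMSO (log2 difference 0.30). PERK and ATF4 targets had 1 higher and none lower of 33, with a median of -0.01, and the higher one was VEGFA, which is on other lists too. DDIT3, the stress factor CHOP, was at 25.9 FPKM in TGF-b1+DP, 30.3 FPKM in TGF-b1 and 27.5 FPKM in DMSO (log2 difference -0.08) and shares reads with MARS1. Of 22 calcium store genes 1 was higher, none lower and the median was -0.06. It was ATP2B1, a calcium pump of the plasma membrane, at 40.7 FPKM in TGF-b1+DP, 11.6 FPKM in TGF-b1 and 19.2 FPKM in DMSO (log2 difference 1.05), and it missed the threshold after the correction for length and GC content. ATP2A2, the SERCA2 pump of the ER, measured 115 FPKM in TGF-b1+DP, 53.97 FPKM in TGF-b1 and 97.3 FPKM in DMSO (log2 difference 0.24). Heat shock proteins had no higher and no lower member of 17 and a median of 0.19. Metallothioneins and zinc genes had 2 higher and none lower of 9, with a median of 0.42. MT2A was at 1260.3 FPKM in TGF-b1+DP, 1046 FPKM in TGF-b1 and 472 FPKM in DMSO (log2 difference 1.42). MT1X stood at 62.5 FPKM in TGF-b1+DP, 106 FPKM in TGF-b1 and 21.9 FPKM in DMSO (log2 difference 1.47). NRF2 targets and redox genes had 1 higher and 2 lower of 28, with a median of -0.32. NQO1, a quinone reductase and classic NRF2 target, was at 14.7 FPKM in TGF-b1+DP, 39.3 FPKM in TGF-b1 and 48.6 FPKM in DMSO (log2 difference -1.66).

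Cytoplasmic ribosomal proteins had no higher and no lower member of 79 and a median of -0.03, and respiratory chain genes none of 55 and a median of -0.19. Glycolysis and hypoxia genes had 2 higher, 1 lower and a median of -0.12 over 34 members. With 2.45% of all genes higher and 2.88% lower, the small counts in this paragraph are not read as a trait of the lists. The lower one was ADM, the vasodilator adrenomedullin, at 4.79 FPKM in TGF-b1+DP, 12.6 FPKM in TGF-b1 and 15.8 FPKM in DMSO (log2 difference -1.54), and the higher ones VEGFA and ANGPTL4. Cholesterol genes had 2 higher, 2 lower and a median of -0.25 over 29. TM7SF2, a sterol reductase, stood at 3.94 FPKM in TGF-b1+DP, 9.91 FPKM in TGF-b1 and 16.9 FPKM in DMSO (log2 difference -1.85). ABCA1, a cholesterol exporter, was at 13.2 FPKM in TGF-b1+DP, 9.78 FPKM in TGF-b1 and 3.46 FPKM in DMSO (log2 difference 1.67), and STARD4, a sterol carrier, was just past the threshold (1.03), but not after the correction for length and GC content. The synthetic enzyme SQLE (log2 difference -0.03) was near 0. Fatty acid and lipid storage genes had 1 higher, none lower and a median of -0.13 over 30, and the higher one was G0S2, an inhibitor of the lipase PNPLA2, at 32.4 FPKM in TGF-b1+DP, 10.7 FPKM in TGF-b1 and 12.1 FPKM in DMSO (log2 difference 1.36).

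Genes of the quiet, retinoid-handling stellate cell had 4 lower and no higher member of 14, with a median of -0.64, and 10 listed genes, LRAT among them, were under the filter. CRABP2, a retinoic acid carrier, measured 0.90 FPKM in TGF-b1+DP, 3.41 FPKM in TGF-b1 and 7.25 FPKM in DMSO (log2 difference -2.12). NGFR, a neurotrophin receptor, stood at 1.56 FPKM in TGF-b1+DP, 1.38 FPKM in TGF-b1 and 6.02 FPKM in DMSO (log2 difference -1.46). LHX2, a factor that holds mouse stellate cells quiet, was at 2.04 FPKM in TGF-b1+DP, 5.29 FPKM in TGF-b1 and 7.19 FPKM in DMSO (log2 difference -1.43). GATA4 measured 7.58 FPKM in TGF-b1+DP, 11.3 FPKM in TGF-b1 and 17.1 FPKM in DMSO (log2 difference -1.08). In each of the 4 the DMSO library was the highest. GATA4 missed the threshold after median-of-ratios scaling. Of 18 mesenchymal transcription factors past the filter, 5 were higher and 1, LHX2, lower, with a median of 0.29. TBX3, a T-box repressor, stood at 55.98 FPKM in TGF-b1+DP, 29.2 FPKM in TGF-b1 and 19.3 FPKM in DMSO (log2 difference 1.49). RUNX1 was at 43.5 FPKM in TGF-b1+DP, 23.9 FPKM in TGF-b1 and 19.8 FPKM in DMSO (log2 difference 1.1). SOX4 was higher (log2 difference 1.06), TWIST1 (-0.71) and SOX9 (-0.88) were under 0, and ZEB1 (0.58) above it. In the keratin and adhesion list 2 of 20 were higher, 3 lower and the median was -0.12. DSP, the desmosomal plaque protein desmoplakin, measured 7.24 FPKM in TGF-b1+DP, 2.5 FPKM in TGF-b1 and 0.38 FPKM in DMSO (log2 difference 2.58), and PCDH1 was higher from a low level (1.21). KRT8, which shares reads with KRT18, was lower, at 143 FPKM in TGF-b1+DP, 517 FPKM in TGF-b1 and 314 FPKM in DMSO (log2 difference -1.13), as were the protocadherin PCDH7, at 1.72 FPKM in TGF-b1+DP against 8.18 FPKM in DMSO (-1.75), and the adhesion molecule L1CAM (-1.01). KRT8 and L1CAM missed the threshold after median-of-ratios scaling.

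The APOL family had no higher and no lower member of 5, with a median of 0.60. APOL2, named in the title of the series, stood at 85.8 FPKM in TGF-b1+DP, 49.1 FPKM in TGF-b1 and 56.1 FPKM in DMSO (log2 difference 0.60). APOL1 (log2 difference 0.62) and APOL3 (0.83) had like differences, APOL6 (0.32) a smaller one and APOL4 one under 0 (-0.19). Prostaglandin and cAMP genes had 1 lower of 14, PTGER2, at 0.39 FPKM in TGF-b1+DP against 1.78 FPKM in DMSO (log2 difference -1.0), and a median of -0.21. Protein kinases C and D had 1 lower of 11, PRKCA, at 11.4 FPKM in TGF-b1+DP against 23.8 FPKM in DMSO (log2 difference -1.0), and a median of 0.02. PTGER2 and PRKCA both missed the threshold after median-of-ratios scaling. Tubulins had 1 lower of 11, TUBA4A (log2 difference -1.52), which shares reads with STK16 and TUBA4B, and a median of -0.32. Histone genes, many of whose transcripts lack a poly(A) tail and which serve here as a check on RNA quality, had 1 lower of 12, H1-2, at 21.5 FPKM in TGF-b1+DP against 56.1 FPKM in DMSO (log2 difference -1.34), and a median of -0.49. The part of RNA quality in the other differences was not tested.

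**Figure D4:**
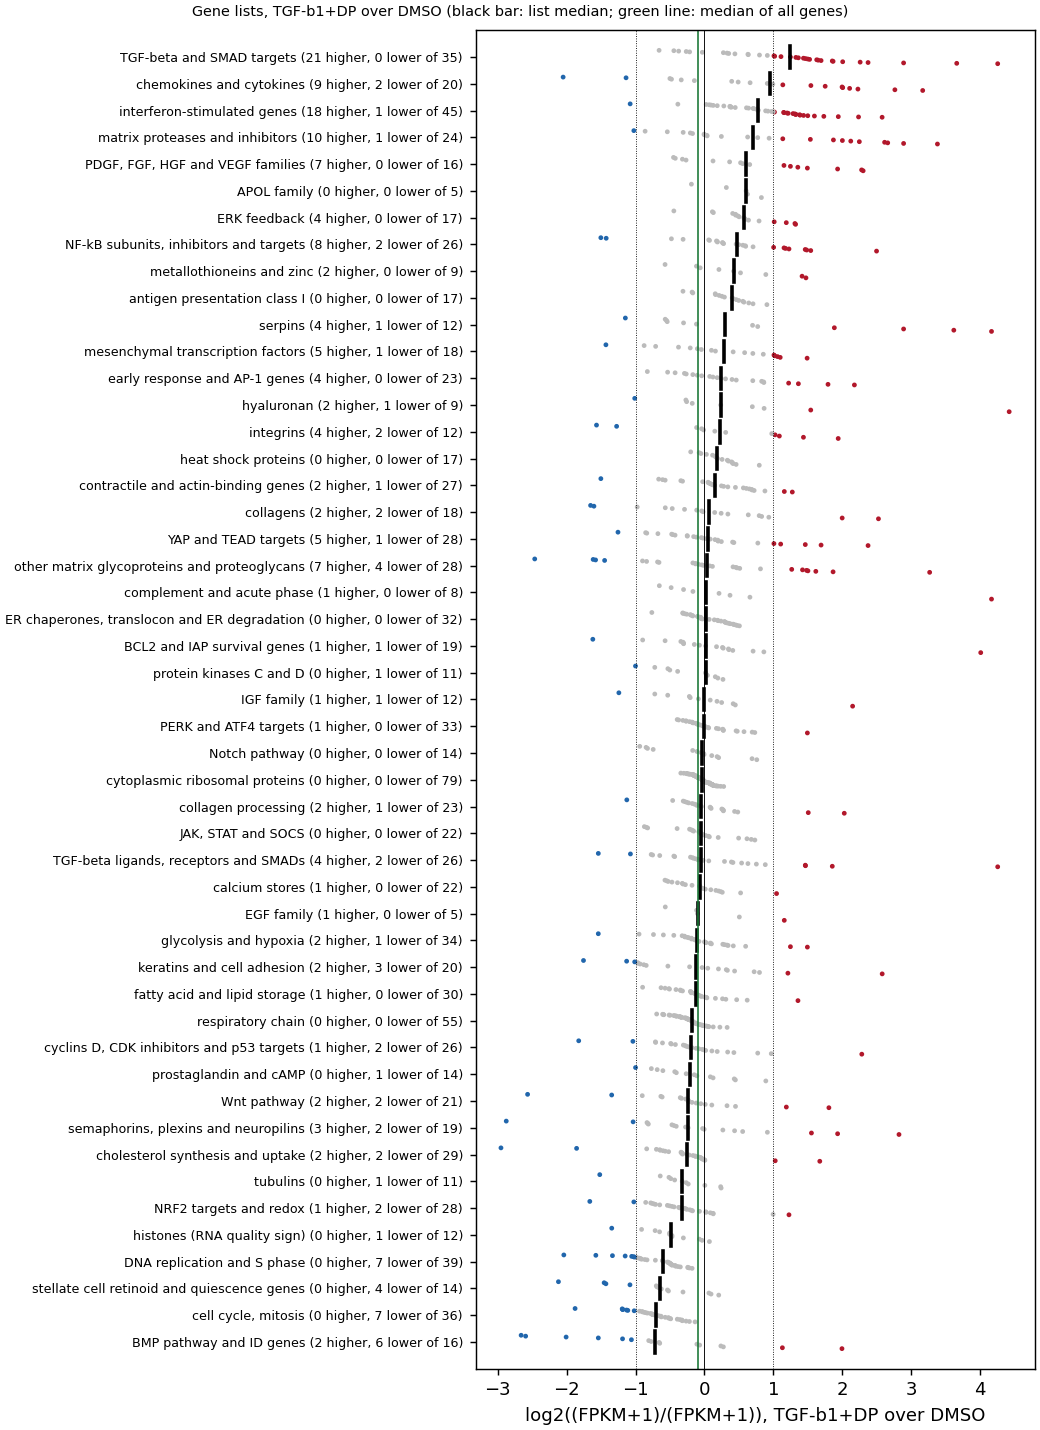
Log2 difference of TGF-b1+DP over DMSO (x axis) for the members of 49 gene lists that passed the filter, ordered by list median, with higher members red, lower members blue and others grey. TGF-beta and SMAD targets lie at the top with a median of 1.25, and mitosis genes and the BMP and ID genes at the bottom with medians of -0.71 and -0.72.

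The largest positive differences among genes above 0 in all libraries, with no shared reads, lay between 5.19 and 3.10. MYCT1, a gene first described as a target of MYC (chromosome 6, 152697895 to 152724567, GRCh38), led them, at 79.7 FPKM in TGF-b1+DP, 17.1 FPKM in TGF-b1 and 1.21 FPKM in DMSO (log2 difference 5.19). SERPINA9, a serpin of germinal centre B cells, came next, at 31.2 FPKM in TGF-b1+DP, 5.32 FPKM in TGF-b1 and 0.45 FPKM in DMSO (log2 difference 4.48). SLAMF8, HAS2, INHBA, SERPINA1, BCL2A1, PMEPA1, MMP1, FN1 and CCL5 are described above. ESM1, the secreted proteoglycan endocan (chromosome 5, 54977864 to 55022671), was at 30.3 FPKM in TGF-b1+DP, 1.73 FPKM in TGF-b1 and 1.24 FPKM in DMSO (log2 difference 3.8). TFPI2, an inhibitor of plasmin and matrix proteases (chromosome 7, 93885396 to 93890991), measured 782 FPKM in TGF-b1+DP, 110.2 FPKM in TGF-b1 and 59.03 FPKM in DMSO (log2 difference 3.7). It was by far the most abundant of the set after FN1. MYEOV, a gene overexpressed in myeloma, stood at 13.6 FPKM in TGF-b1+DP, 0.72 FPKM in TGF-b1 and 0.54 FPKM in DMSO (log2 difference 3.25). STC1, a secreted glycoprotein, was at 69.7 FPKM in TGF-b1+DP, 8.52 FPKM in TGF-b1 and 7.24 FPKM in DMSO (log2 difference 3.1). For ESM1, MYEOV and STC1 the TGF-b1 library lay near the DMSO library.

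The largest negative differences under the same rule lay between -4.14 and -2.31. CPA4, a secreted carboxypeptidase (chromosome 7, 130293134 to 130324180), measured 3.16 FPKM in TGF-b1+DP, 40.99 FPKM in TGF-b1 and 72.3 FPKM in DMSO (log2 difference -4.14). RARRES2, which encodes the chemoattractant chemerin (chromosome 7, 150338317 to 150341674), stood at 15.8 FPKM in TGF-b1+DP, 45.5 FPKM in TGF-b1 and 156 FPKM in DMSO (log2 difference -3.23). C1QL1, a secreted C1q-like protein, was at 1.1 FPKM in TGF-b1+DP, 6.8 FPKM in TGF-b1 and 13.8 FPKM in DMSO (log2 difference -2.82). In all 3 the DMSO library was the highest and the TGF-b1+DP library the lowest. PPP2R2B, a regulatory subunit of protein phosphatase 2A, measured 1.65 FPKM in TGF-b1+DP, 5.91 FPKM in TGF-b1 and 14.6 FPKM in DMSO (log2 difference -2.56). PREX1, an exchange factor for RAC, stood at 1.06 FPKM in TGF-b1+DP, 1.86 FPKM in TGF-b1 and 10.97 FPKM in DMSO (log2 difference -2.54). RIN1, a RAS effector, was at 5.46 FPKM in TGF-b1+DP, 11.1 FPKM in TGF-b1 and 36.2 FPKM in DMSO (log2 difference -2.53). TMEM255A measured 4.18 FPKM in TGF-b1+DP, 12.2 FPKM in TGF-b1 and 27.4 FPKM in DMSO (log2 difference -2.45). The orphan receptor GPRC5A was at 5.18 FPKM in TGF-b1+DP, 13.1 FPKM in TGF-b1 and 31.9 FPKM in DMSO (log2 difference -2.41). The kinase PIM1 stood at 3.72 FPKM in TGF-b1+DP, 18.9 FPKM in TGF-b1 and 22.4 FPKM in DMSO (log2 difference -2.31). For PIM1 the TGF-b1 library lay near the DMSO library, while for PREX1 it lay near the TGF-b1+DP library. SEMA3B, ID1, ATOH8, SFRP1 and MATN2 are described above.

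Some genes were listed at 0 in one library, and no fold is given for them. SCG5, a chaperone of neuroendocrine proprotein convertase, was at 30.04 FPKM in TGF-b1+DP and 3.56 FPKM in TGF-b1 and listed at 0 in DMSO. The readthrough ARHGAP11A-SCG5 has its own values, at 4.96 FPKM in TGF-b1+DP, listed at 0 in TGF-b1 and at 0.84 FPKM in DMSO, so the split between these 2 entries is uncertain. The neuropeptide gene GAL was at 18.5 FPKM in TGF-b1+DP and 3.97 FPKM in TGF-b1 and listed at 0 in DMSO. ZP4, of the egg coat, was at 5.63 FPKM in TGF-b1+DP and 0.02 FPKM in TGF-b1 and listed at 0 in DMSO. NEDD8-MDP1, a readthrough of neighbouring genes whose reads it shares, was at 6.22 FPKM in TGF-b1+DP and 7.23 FPKM in TGF-b1 and listed at 0 in DMSO. SULT1A4, a near-identical copy of SULT1A3, was listed at 0 in TGF-b1+DP and stood at 8.25 FPKM in TGF-b1 and 8.83 FPKM in DMSO. The split of reads between these copies is uncertain, and so is the 0.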

How the data were processed

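RNA of LX-2 cells was sequenced in 3 libraries, 1 per group. The authors deposited 1 table of FPKM values to 2 decimals, 1 column per library, per the file headers. Per the submitters' processing notes, BWA, Bowtie, Cufflinks and Cuffdiff were among the tools and GRCh38.p13 was the build. The sources used here do not give the role or version of each tool, the strand setting or the depth. Because FPKM depends on the fragments of its own library, a few abundant transcripts move all other values. No whole read counts were recovered from the low values, so no counting interval is given.

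Of 17596 lines, 20 held no gene and were left out. Differences were log2((FPKM+1)/(FPKM+1)), with a filter of a mean of at least 1 FPKM and a threshold of 1. Lists (49) are described by counts and medians beside those of all genes. The members and lists were chosen with earlier results of these data known. The text names the 15 largest differences in each direction among genes above 0 in all libraries, at 5 FPKM or more in the higher one and with no shared reads, then up to 3 members of a list in each direction with members needed for contrast, and key genes fixed in a list; some further list members are named as examples. Some genes that this rule names are not reported here. A gene shares reads where exons of another measured gene overlap it by at least 100 bases or at least 200 bases match one at 97% identity (3702 genes, 2707 past the filter); its values are uncertain.

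GENCODE 29 gave length, GC content and positions for 17336 genes (98.6%), matched by Entrez identifier, and RefSeq gave promoter windows for 9401 of the 11327 genes. The alternatives were 11 settings of pseudocount, filter, scaling, shared reads, trend and threshold. Python 3.11.15, numpy 2.4.6, pandas 2.3.3, matplotlib 3.10.9, bedtools 2.31.1 and minimap2 2.31 were used. The procedure was run on simulated libraries with known fold changes and small noise. These held no difference of scaling, length or GC content between libraries, so they do not check the calls against such differences.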

Additional observations from a re-analysis of the deposited data

How the results depend on the processing

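No paired analysis was possible because each group held 1 library. The values as deposited gave 278 higher and 326 lower genes. A pseudocount of 5 FPKM gave 159 higher and 123 lower genes, and a 3-fold threshold 114 and 68. A pseudocount of 0.1 FPKM gave 532 lower genes, a filter of 5 FPKM 206, median-of-ratios scaling 215 and the correction for length and GC content 207. The cause was not tested, except that a larger pseudocount shrinks low genes, a stricter threshold admits fewer and a stricter filter tests fewer. The other counts lay between 199 and 356 higher and between 260 and 347 lower genes. No higher or lower gene named changed sign under these 11 settings. Which direction held more genes did depend on the setting: lower genes outnumbered higher genes as deposited, while higher genes outnumbered lower genes at a pseudocount of 5 FPKM, after median-of-ratios or upper-quartile scaling, after the correction for length and GC content and at the 3-fold threshold. Of 234 higher or lower list members and genes named, 83 missed the threshold at a pseudocount of 5 FPKM, 24 after median-of-ratios scaling and 29 after the correction for length and GC content, and these included 7 genes under every library scaling tried. Depth and replicate spread are unknown, so no difference has an error.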

Other observations

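The families below were chosen after their values were seen and are given as values, with no test. Of all genes past the filter, 2.45% were higher and 2.88% lower. The filter takes in the TGF-b1+DP level, so a gene high in that library alone could pass it. Of 13 S100 genes, small calcium-binding proteins, 8 passed the filter, 1 was higher and 4 were lower. S100A11 stood at 662 FPKM in TGF-b1+DP, 988 FPKM in TGF-b1 and 283 FPKM in DMSO (log2 difference 1.22), while S100A6 stood at 379.5 FPKM in TGF-b1+DP, 849 FPKM in TGF-b1 and 865 FPKM in DMSO (log2 difference -1.19) and S100A10 at 216 FPKM in TGF-b1+DP, 886 FPKM in TGF-b1 and 561 FPKM in DMSO (log2 difference -1.37). S100A3 (log2 difference -1.46) and S100A4 (-1.08) were the other lower members, and S100A13 (0.08) and S100A16 (0.37) lay within the threshold. S100A4 missed the threshold after median-of-ratios scaling, and S100A4 and S100A6 after the correction for length and GC content. In the serpin A cluster of chromosome 14, SERPINA1 and SERPINA9 were the 2 members past the filter of 9 measured, and both were higher. The genes between them, such as SERPINA11, were at most 0.09 FPKM.

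Immune checkpoint ligands CD274, which encodes PD-L1, at 12.99 FPKM in TGF-b1+DP, 4.16 FPKM in TGF-b1 and 2.87 FPKM in DMSO (log2 difference 1.85), and PDCD1LG2, which encodes PD-L2, at 8.17 FPKM in TGF-b1+DP, 2.98 FPKM in TGF-b1 and 2.21 FPKM in DMSO (log2 difference 1.51), were higher, as was the amino acid oxidase IL4I1 (1.77), which shares reads with NUP62. VSIR (log2 difference -1.06) and the CD27 ligand CD70 (-1.2) were lower. VSIR missed the threshold after median-of-ratios and upper-quartile scaling, and VSIR and CD70 after the correction for length and GC content. Of 7 inflammasome genes, 6 passed the filter, IL1B was higher as described above, the sensor NLRP3 (1.09) and the protease CASP1 (1.34) were higher and the adaptor PYCARD lower, at 1.38 FPKM in TGF-b1+DP, 4.18 FPKM in TGF-b1 and 4.28 FPKM in DMSO (log2 difference -1.15), though not after the correction for length and GC content. CASP1 shares reads with CARD16.

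Of 11 genes best known from blood vessels, 6 passed the filter and all 6 were higher, MYCT1, ESM1, ROBO4 (log2 difference 1.93), TIE1 (1.13), CD93 (2.89) and the netrin receptor UNC5B (1.96). CD93 passed through its TGF-b1+DP level, at 6.84 FPKM in TGF-b1+DP, 0.1 FPKM in TGF-b1 and 0.06 FPKM in DMSO. The count of higher genes among those past the filter is therefore not a measure of the group. The other 5 were under the filter. Of these, CDH5, VWF and KDR were at most 0.28 FPKM in every library. PECAM1 was at 1.71 FPKM in TGF-b1+DP, 0.66 FPKM in TGF-b1 and 0.48 FPKM in DMSO (log2 difference 0.87) and TEK at 1.78 FPKM in TGF-b1+DP, 0.46 FPKM in TGF-b1 and 0.45 FPKM in DMSO (log2 difference 0.94), so both reached 1 FPKM in the TGF-b1+DP library alone. A pair of genes known from activated fibroblasts were higher, LRRC15 at 12.4 FPKM in TGF-b1+DP, 5.53 FPKM in TGF-b1 and 1.05 FPKM in DMSO (log2 difference 2.7) and FAP at 3.58 FPKM in TGF-b1+DP, 1.38 FPKM in TGF-b1 and 0.11 FPKM in DMSO (log2 difference 2.04). Some other fibroblast and mesenchymal markers were under 0, among them ACTA2 (log2 difference -1.5), COL3A1 (-1.6), THY1 (-1.27) and PDGFRB (-0.27). Lower genes with high DMSO levels included the caveolar coat gene CAV1, at 72.2 FPKM in TGF-b1+DP, 194 FPKM in TGF-b1 and 198 FPKM in DMSO (log2 difference -1.44), the orphan nuclear receptor NR2F2, at 33.3 FPKM in TGF-b1+DP, 78.5 FPKM in TGF-b1 and 104 FPKM in DMSO (log2 difference -1.61), and the imprinted gene MEST, at 6.6 FPKM in TGF-b1+DP, 107 FPKM in TGF-b1 and 73.3 FPKM in DMSO (log2 difference -3.29), which shares reads with COPG2. The late cornified envelope genes LCE3A and LCE3D, of the epidermis, were at 4.62 and 7.62 FPKM in TGF-b1+DP and listed at 0 in DMSO.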
